A study of Mus musculus with 5 samples.

Results

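The genes described here encode the MHC class I antigen presentation pathway in mouse liver, and they were chosen by name: H2-K1, H2-D1, B2m, Tap1, Tap2, Tapbp, Psmb8, Psmb9, Psmb10 and Nlrc5. Of these 10 genes, 9 have an entry of their own among the 23793 genes of the table, and all 9 passed the minimum level that left 11687 genes for testing. H2-D1 is merged with H2-L in 1 entry, whose values are given beside the others without being counted. The samples were whole livers of 12-week-old C57BL/6 mice, from 2 Lifrfl/fl mice with floxed Lifr alleles (control) and 3 Lifrfl/fl;Crealb/alb mice (Lifr-knockout), which also carry Cre driven by the albumin promoter and so active in hepatocytes. Lifr encodes the receptor for the cytokine LIF, and the comparison asks which liver RNAs differ when hepatocytes lack it. All 5 mice carry the floxed alleles and none carries Cre alone, so an effect of Cre and an effect of losing Lifr cannot be told apart. Levels are FPKM, which are scaled to transcript length and to library size and can be set side by side between genes.

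MHC class I molecules display peptides from the inside of almost every cell to CD8+ T cells. Proteasomes cut proteins into peptides, the TAP transporter carries them into the endoplasmic reticulum, and there they are loaded on a heavy chain paired with β2-microglobulin. Interferons raise the genes of this pathway, partly through NLRC5, and exchange the standard catalytic subunits of the proteasome for the immunoproteasome subunits.

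Lifr itself was at 132 and 151 FPKM in the controls and at 32.8, 44.3 and 54.8 FPKM in the knockouts, and the groups did not overlap. Within each group, the deposited columns were sorted separately for each gene, as text from low to high (15586 of 15586 genes with distinct values), so that a column does not follow 1 mouse from gene to gene. Values are therefore given from lowest to highest within a group, and no value of 1 gene can be matched to that of another in the same mouse. With 2 against 3 samples there are 10 arrangements, so an exact permutation test cannot reach 0.05, and genes were tested with limma on log2(FPKM + 0.1) over all 11687 genes, two-sided, with Benjamini-Hochberg adjustment. Depth is unknown because the values carry no counts, and fewer cells of a type and less RNA per cell cannot be told apart in whole liver. The labelled tissue was checked with hepatocyte markers: 14 were tested and summed to 38400 FPKM in controls and 38200 FPKM in knockouts, while Alb is listed at 0 in all 5 libraries.

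The control regions of these genes are shown because H2-K1, H2-D1 and B2m have a κB site there and Tap1 and Psmb9 share theirs. Promoter windows of 300 bases (250 before to 50 after a start) from RefSeq on GRCm38.p6, the assembly of mm10, were found for 8 of the 10 genes, all except Tap2 and Nlrc5. Each stretch is read 5′ to 3′ on the strand of its gene, with motif matches in capitals. In H2-K1 (chr17:34000429-34000458, minus strand) and H2-D1 (chr17:35262923-35262952, plus strand), a κB site, to which NF-κB binds, is followed by the core of an interferon-stimulated response element. The 30 bases shown for each differ at 1 base.
H2-K1: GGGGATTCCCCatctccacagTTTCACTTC
H2-D1: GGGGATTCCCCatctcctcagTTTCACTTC
The 250 bases before the start of B2m (chr2:122147437-122147686, plus strand) hold a κB site, then TGACG (the core of a CRE element) and then a CCAAT box on the opposite strand.
B2m: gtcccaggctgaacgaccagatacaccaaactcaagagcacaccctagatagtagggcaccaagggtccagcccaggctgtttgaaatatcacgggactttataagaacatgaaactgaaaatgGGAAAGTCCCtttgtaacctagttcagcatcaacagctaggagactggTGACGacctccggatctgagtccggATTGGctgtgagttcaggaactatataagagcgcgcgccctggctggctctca
Tap1 and Psmb9 are transcribed away from each other from starts 226 bases apart, and the 225 bases between them (chr17:34187331-34187555, strand of Tap1) hold a CCAAT box and a CRE core.
Tap1 and Psmb9: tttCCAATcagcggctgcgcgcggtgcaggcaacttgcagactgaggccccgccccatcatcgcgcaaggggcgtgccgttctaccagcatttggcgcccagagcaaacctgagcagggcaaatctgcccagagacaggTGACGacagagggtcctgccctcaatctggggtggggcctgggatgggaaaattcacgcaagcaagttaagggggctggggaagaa
Matches were searched on both strands, and they are descriptions of letters, not of binding. A κB site stands in the windows of 3 of the 8 genes (H2-K1, H2-D1 and B2m), against 8.46% of 32851 windows of that length. The response element core, GAANNGAAA, stands in 2 of 8 (7.52% of all windows), the CRE core in 5 of 8 (20.8%) and CCAAT in 6 of 8 (37.4%). Only this spacing of the response element was searched. The stretch gaaactgaaa, just before the κB site of B2m, is spaced differently and was not counted. Windows without a match, that of B2m among them, are therefore not shown to lack the element. The gamma-activated sequence core TTCNNNGAA stands in 1 of 8, that of Psmb8 (8.3%), and the Psmb10 window holds no match to any of these motifs. In the H2-K1 and H2-D1 windows the κB match is counted at 2 overlapping positions. Tap1 and Psmb9 share 275 bases of their windows, so that they are not separate counts.

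Of the 10 genes, 7 stand on chromosome 17, in the mouse MHC region. In GRCm38.p6 coordinates, Psmb9 (chr17:34182030-34187330), Tap1 (chr17:34187556-34197225), Psmb8 (chr17:34198195-34201454) and Tap2 (chr17:34204479-34216321) follow each other within 34292 bases. Tapbp (chr17:33919478-33929290) and H2-K1 (chr17:33996012-34000619) lie on one side of them and H2-D1 (chr17:35263094-35267497) on the other. B2m (chr2:122147687-122153082), Nlrc5 (chr8:94434335-94527272) and Psmb10 (chr8:105935728-105938392) lie outside this region.

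None of the 9 genes passed the threshold (adjusted p 0.05, limma), a threshold passed by 0.565% of all genes tested (66 of 11687; 0.359% higher and 0.205% lower). At an unadjusted p under 0.05, 2 of the 9 passed, B2m and Nlrc5, both higher in the knockouts, against 9.63% of all genes in either direction (6.08% higher and 3.56% lower). The log2 fold change (knockout minus control) was above 0 in 9 of 9, against 54.9% of all genes tested. Its median was 0.21, against 0.03 over all genes, whose 10th to 90th percentiles run from -0.25 to 0.31. The number above 0 rests in part on single values: it was 5 of 9 when the lowest control value of each gene was left out and 7 of 9 when the highest knockout value was. No gene passed in any of the 13 alternatives run.

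**Figure D1:**
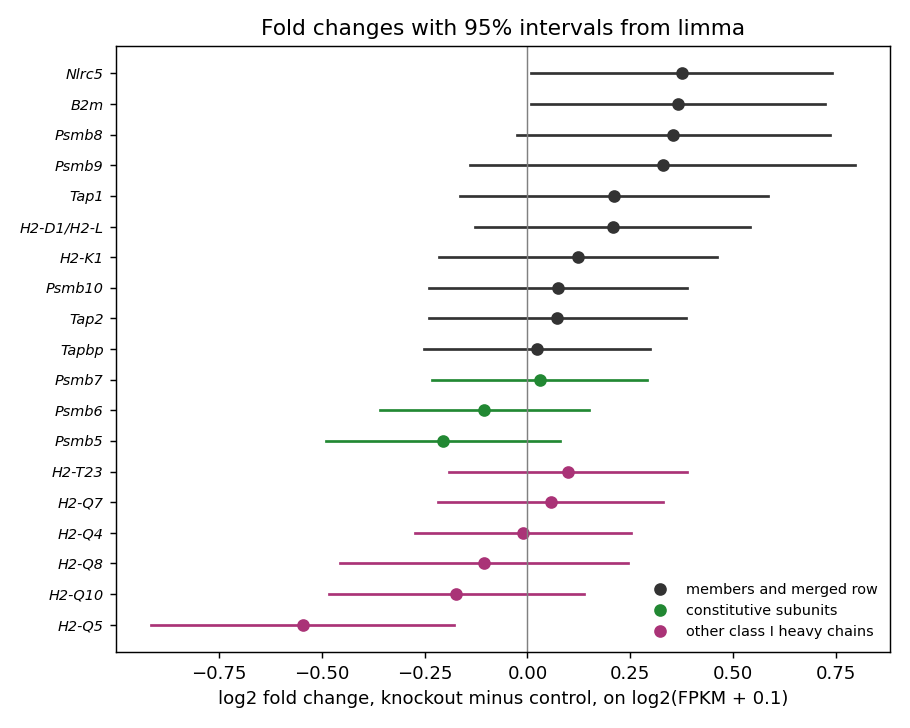
Difference between genotypes for the class I genes and merged entry (black), the constitutive proteasome subunits (green) and 6 other heavy chain genes (purple). Points are log2 fold changes on log2(FPKM + 0.1), 3 knockouts against 2 controls, and bars are 95% intervals from limma; the intervals of B2m and Nlrc5 start just above 0, each at 0.01, those of the other 7 class I genes, the merged entry and the green genes reach 0, and that of H2-Q5 lies below 0 (-0.91 to -0.18), although none of these genes passed after adjustment.

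Nlrc5 encodes the transactivator of class I genes and was the lowest expressed member. It was at 3.64 and 4.03 FPKM in the controls and at 4.17, 5.04 and 5.92 FPKM in the knockouts (XLOC_020581). All 3 knockout values lay above both control values, as they did for 15.1% of all genes tested. The means were 3.84 ± 0.272 FPKM (SD, n = 2) and 5.05 ± 0.876 FPKM (SD, n = 3), a 1.30-fold difference. Its log2 fold change of 0.37 (95% interval 0.01 to 0.74) did not pass (adjusted p = 0.51, limma), and 6.81% of all genes had a higher one.

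B2m encodes β2-microglobulin, the light chain that pairs with class I heavy chains. It was the highest expressed member, at 1503 and 1723 FPKM in the controls and at 1889, 1947 and 2422 FPKM in the knockouts (XLOC_011472). The groups did not overlap, and every knockout value was the higher. The means of 1613 ± 156 FPKM (SD, n = 2) and 2086 ± 293 FPKM (SD, n = 3) differed 1.29-fold. The log2 fold change was 0.37 (95% interval 0.01 to 0.72, adjusted p = 0.51, limma), so that B2m and Nlrc5, at opposite ends of the range of levels, had fold changes of the same size and both missed the threshold.

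H2-K1 encodes a classical heavy chain, H-2K. It was at 549 and 670 FPKM in the controls and at 583, 683 and 725 FPKM in the knockouts (XLOC_009206). The ranges overlapped, and the log2 fold change was 0.12 (95% interval -0.21 to 0.46, adjusted p = 0.82, limma). H2-D1 encodes the other classical heavy chain among the listed genes. Its merged entry with H2-L, which does not show if H2-L adds to the level, was at 241 and 297 FPKM in the controls and at 269, 331 and 331 FPKM in the knockouts (XLOC_008699). These ranges overlapped too, with a log2 fold change of 0.21 (95% interval -0.13 to 0.54, adjusted p = 0.70, limma). Since only uniquely mapped reads were kept, the levels of heavy chain genes, which are near-identical over long stretches, are uncertain. The mean of B2m was set against the summed means of H2-K1 and the merged entry alone. It was 184% of that sum in controls (155% to 218% over the pairings that the unmatched values allow) and 214% in knockouts (179% to 284%). These ranges overlapped. The 20 other heavy chain genes in the table, which summed to 1510 FPKM in controls and 1370 FPKM in knockouts, are not in that sum.

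**Figure D2:**
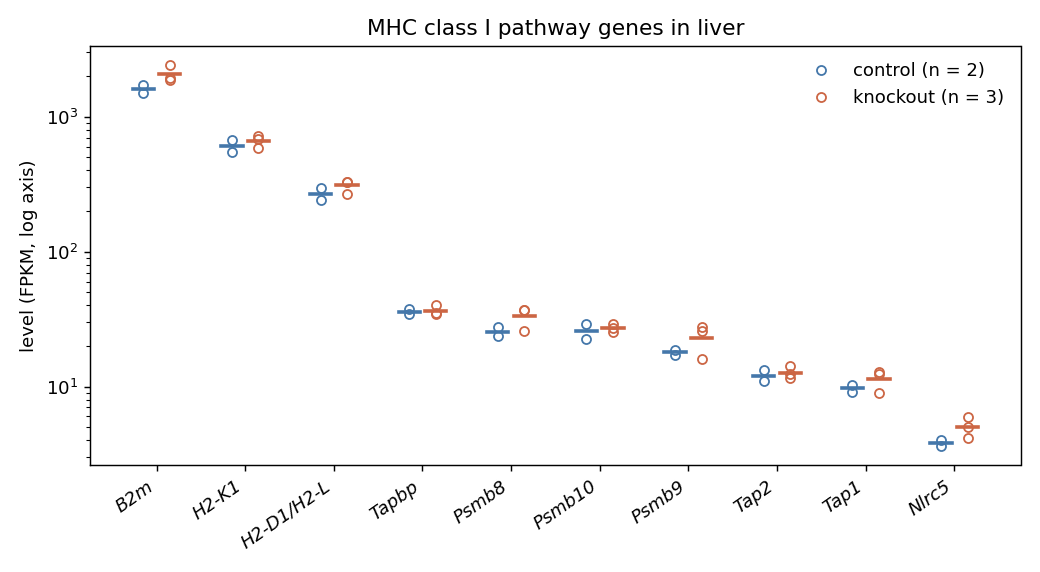
Levels of the class I genes in the deposited values. Each point is 1 FPKM value on a log axis, 2 for controls and 3 for knockouts, and each horizontal line is a group mean; the groups are apart for B2m (up to 1723 against from 1889 FPKM) and Nlrc5 (up to 4.03 against from 4.17 FPKM) and overlap for the other genes.

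The immunoproteasome subunits are catalytic subunits that take the places of constitutive ones: Psmb8 (LMP7) that of Psmb5, Psmb9 (LMP2) that of Psmb6 and Psmb10 (MECL-1) that of Psmb7. Psmb8 was at 23.7 and 27.5 FPKM in the controls and at 25.8, 36.7 and 36.7 FPKM in the knockouts (XLOC_008656). The upper pair of knockout values stood above both controls and the lowest between them. Its log2 fold change was 0.35 (95% interval -0.03 to 0.73, adjusted p = 0.55, limma). Psmb9 was at 17.1 and 18.7 FPKM in the controls and at 16.0, 25.7 and 27.5 FPKM in the knockouts (XLOC_009213). One knockout value was thus the lowest of all 5, and the log2 fold change of 0.33 had a wide interval (-0.14 to 0.80, adjusted p = 0.67, limma). Without that lowest value the log2 fold change of Psmb9 was 0.57 with an adjusted p of 0.14 (limma), the smallest reached by any member in the 13 alternatives, over which its adjusted p ran from 0.14 to 0.93. Without its highest knockout value the log2 fold change was 0.18 (adjusted p = 0.83, limma). Psmb10 was at 22.7 and 29.3 FPKM in the controls and at 25.3, 27.1 and 29.2 FPKM in the knockouts (XLOC_021191). The knockout values of Psmb10 all lay between the controls, with a log2 fold change of 0.07 (95% interval -0.24 to 0.39, adjusted p = 0.89, limma).

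The constitutive counterparts did not pass either. Psmb5 was at 107 and 123 FPKM in controls and at 91.0, 104 and 105 FPKM in knockouts, a log2 fold change of -0.20 (adjusted p = 0.66, limma). Psmb6 was at -0.11 on the same scale (adjusted p = 0.80, limma) and Psmb7 at 0.03 (adjusted p = 0.95). Every knockout value of Psmb5 and Psmb6 lay below both controls, as for 10.7% of all genes, whereas Psmb7 overlapped. Psmb8 therefore stood at 22.2% of Psmb5 in the control means and at 33.1% in the knockout means. The pairings allowed by the unmatched values give 19.3% to 25.6% and 24.6% to 40.3%, ranges that overlap. Psmb9 stood at 18.3% of Psmb6 in controls (16.9% to 19.7%) and 25.3% in knockouts (17.3% to 31.0%), and Psmb10 at 19.3% and 19.8% of Psmb7. These ratios were not tested, and each immunoproteasome subunit stayed below its counterpart in both genotypes.

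**Figure D3:**
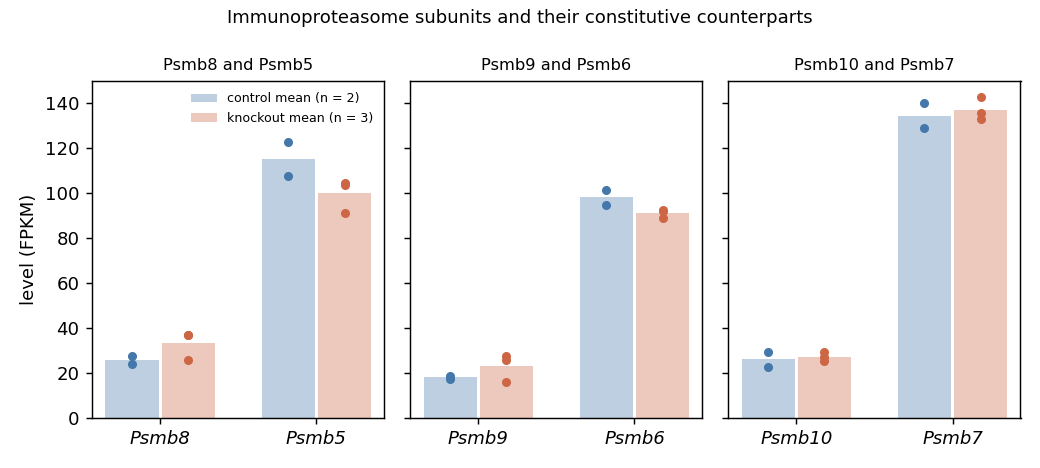
Immunoproteasome subunits beside the constitutive subunits whose places they take. Points are FPKM values by genotype, 2 controls (blue) and 3 knockouts (red), and bars are group means on an axis from 0; Psmb8 spans 23.7 to 36.7 FPKM and Psmb5 spans 91.0 to 123 FPKM.

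The peptide transporter is made of TAP1 and TAP2. Tap1 was at 9.15 and 10.3 FPKM in the controls and at 8.94, 12.4 and 12.8 FPKM in the knockouts (XLOC_008655). As for Psmb9, with which it shares its upstream region, 1 knockout value was the lowest of the 5 and the others the highest, although it is unknown if the low values come from the same mouse. The log2 fold change of Tap1 was 0.21 (95% interval -0.16 to 0.58, adjusted p = 0.72, limma). Tap2 was at 10.9 and 13.2 FPKM in the controls and at 11.5, 12.4 and 14.1 FPKM in the knockouts (XLOC_008657), a log2 fold change of 0.07 (95% interval -0.24 to 0.38, adjusted p = 0.89, limma). Tapbp encodes tapasin, which holds the empty heavy chain at the transporter. It was at 34.3 and 37.5 FPKM in the controls and at 34.7, 34.9 and 40.0 FPKM in the knockouts (XLOC_008643). Its log2 fold change was the nearest to 0 of the 9, at 0.02 (95% interval -0.25 to 0.30, adjusted p = 0.96, limma).

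In order of level, the controls ran B2m, H2-K1, the H2-D1 and H2-L entry, Tapbp, Psmb10, Psmb8, Psmb9, Tap2, Tap1 and Nlrc5, and among neighbors only Psmb10 and Psmb8 overlapped. In the knockouts, Tapbp, Psmb8, Psmb10 and Psmb9 followed each other with overlapping ranges, as did Tap2 and Tap1, and the first 3 and the last kept their places.

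Other genes of the pathway were read from the same fit. Among the peptide loading and trimming genes, 0 of 10 passed, 3 had an unadjusted p under 0.05, 9 of 10 log2 fold changes were above 0 and the median was 0.22. In 5 of the 10, every knockout value lay above both controls. For this list and those below, the shares over all genes tested were 0.565% passed and 9.63% at an unadjusted p under 0.05. Log2 fold changes were above 0 in 54.9% of all genes, and 15.1% had every knockout value higher. Calr (calreticulin, a chaperone of the loading complex) was at 350.2 ± 9.68 FPKM in controls and 441 ± 49.1 FPKM in knockouts (log2 fold change 0.33, adjusted p = 0.49, limma). Pdia3 (ERp57, its disulfide partner) was at 165 ± 15.2 FPKM and 210 ± 10.9 FPKM (0.35, adjusted p = 0.39, limma). Both were non-overlapping, with the knockouts higher. For Canx, the chaperone calnexin, the log2 fold change was 0.25 (adjusted p = 0.59, limma), also without overlap and with the knockouts higher.

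Of the nonclassical and other heavy chains, 11 of 20 genes in the table reached the minimum level, 6 are listed at 0 in all libraries, and 0 passed. The list had a median of 0.06 and 1 gene (H2-Q5, lower) at an unadjusted p under 0.05. The most abundant, H2-Q10, whose product is secreted by the liver, was at 1268 ± 49.4 FPKM in controls and 1128 ± 100.1 FPKM in knockouts (log2 fold change -0.17, adjusted p = 0.73, limma). H2-T23, which encodes Qa-1, and H2-Q7, which encodes a Qa-2 molecule, had log2 fold changes of 0.10 and 0.06. The merged entry of H2-T22 and H2-T9 was at 44.7 and 45.2 FPKM in controls and 52.1, 55.9 and 57.9 FPKM in knockouts (0.30, adjusted p = 0.44, limma) and was named after its values were seen. Of the class I-like molecules, 0 of 6 tested passed, 0 at an unadjusted p under 0.05, and their median was -0.14. Among these, Azgp1 (zinc-α2-glycoprotein) was at 0.11, Cd1d1 (which presents lipids) at 0.07 and Fcgrt (the neonatal Fc receptor) at -0.15. A merged entry of Raet1a to Raet1e, ligands of the NK cell receptor NKG2D, was at 17.2 and 24.5 FPKM in controls and 7.32, 11.9 and 13.7 FPKM in knockouts (-0.95, adjusted p = 0.20, limma), without overlap, and was likewise named after its values were seen.

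The rest of the proteasome lay close to the median of all genes. None of the 11 other 20S subunits, 21 subunits of the 19S cap, 10 PA28 and assembly genes or 8 cytosolic peptidases passed or had an unadjusted p under 0.05 (limma), and their median log2 fold changes were 0.04, 0.03, 0.07 and 0.03. Psme1 and Psme2, the PA28 activator subunits, had log2 fold changes of -0.03 and 0.09, and Pomp, an assembly factor, 0.13. Psmb4 and Psmb1 had -0.08 and 0.05.

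Among 19 tested regulators of class I genes, 0 passed, 2 had an unadjusted p under 0.05, 8 were above 0 and the median was -0.02. The most abundant were Irf2 (0.13), Irf3 (-0.14) and Irf7 (0.03), which encode interferon regulatory factors. Irf1, an activator of Tap1, Psmb9 and Nlrc5, was at 16.9 and 17.3 FPKM in controls and at 12.4, 16.0 and 17.6 FPKM in knockouts, with overlap (-0.17, adjusted p = 0.76, limma). Irf1 was picked with its values in view. The interferon receptors and their signaling genes had a median of 0.05 over 11 tested, with 0 called, 2 at an unadjusted p under 0.05 and Ifnar2, an interferon receptor chain, at 0.04. Ifna4 and Ifnb1 are listed at 0 in all 5 libraries.

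**Figure D4:**
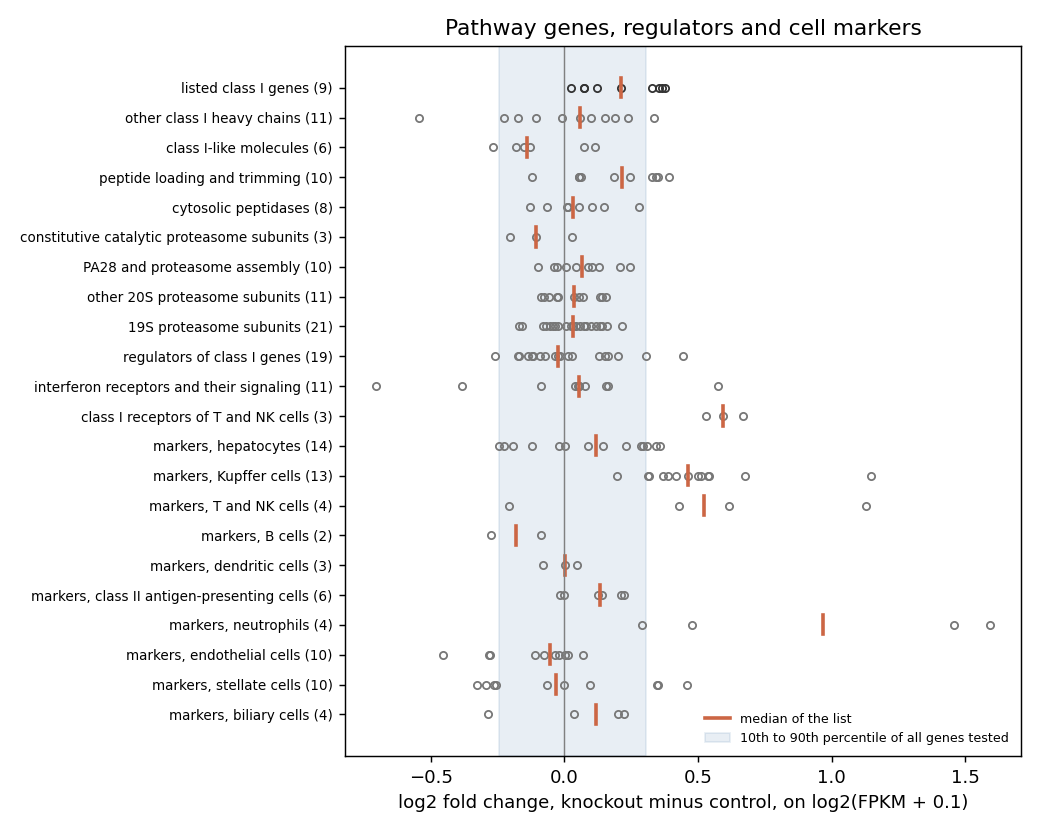
Log2 fold changes (knockout minus control, log2(FPKM + 0.1)) of the class I genes and of each other gene list. Each point is 1 tested gene the vertical line in each list is its median and the shaded band spans the 10th to 90th percentiles of all genes tested (-0.25 to 0.31); the class I genes have a median of 0.21, Kupffer cell markers 0.46 and neutrophil markers 0.97.

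Class I genes are expressed by all liver cell types, and markers of several immune cells had log2 fold changes mostly above 0. Of 13 Kupffer cell markers tested, 0 passed, 8 had an unadjusted p under 0.05 (9.63% of all genes), 13 were above 0 with a median of 0.46 (54.9% of all genes) and 10 were non-overlapping with the knockouts higher (15.1% of all genes). Their summed level was 317 FPKM in controls (298 to 336 for sums of the lowest and of the highest values) and 430.0 FPKM in knockouts (372 to 523), with log2 fold changes of 0.51 for Cd5l, 0.42 for Clec4f and 0.31 for C1qc. Of 15 markers of T and NK cells, 4 were tested, with 0 called, 1 at an unadjusted p under 0.05 and a median of 0.52, and all 15 summed to 4.95 FPKM in controls and 7.60 FPKM in knockouts. Of 4 neutrophil markers tested, 1 passed, S100a9 (log2 fold change 1.59, adjusted p = 0.018, limma), and all 12 in the table summed to 4.65 FPKM in controls and 10.5 FPKM in knockouts. That count was 0 without the filter on low values and 0 to 2 when single values were left out. Most of the neutrophil marker sum in knockouts came from S100a9 (1.08 FPKM in controls and 3.42 FPKM in knockouts) and S100a8 (1.47 and 4.13 FPKM). S100a8 was named with its values in view. Over all markers in the table, tested or not, class II genes summed to 177 FPKM and 198 FPKM, dendritic cell markers to 149 FPKM and 142 FPKM, and B cell markers to 3.69 FPKM and 3.50 FPKM. Endothelial markers summed to 162 FPKM and 152 FPKM, stellate cell markers to 94.4 FPKM and 113 FPKM, and biliary markers to 28.4 FPKM and 33.7 FPKM. Single genes carry most of some sums: Bst2 (146 and 138 FPKM) for dendritic cells, Dcn (53.8 and 68.8 FPKM) for stellate cells and Spp1 (24.6 and 29.6 FPKM) for biliary cells. Of 10 stellate cell markers, 4 were above 0, with a median of -0.03. Of these 10, 1 was non-overlapping with the knockouts higher and 3 with the knockouts lower (10.7% of all genes). The part of these cells in the values of B2m, Nlrc5 and the other class I genes was not tested.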

How the data were processed

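Liver RNA of 2 Lifrfl/fl and 3 Lifrfl/fl;Crealb/alb mice was sequenced. The submitters' processing notes name FastQC 0.11.5, TopHat2 2.1.1, SAMtools 1.5 and Cufflinks 2.2.1 with mm10. The authors kept uniquely mapped reads, and the deposited FPKM values were estimated per gene with a RefSeq annotation. The fold change, p-value and call columns of the authors' Cuffdiff comparison were not used.

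Genes averaging 0.5 FPKM or more across the 5 libraries entered a fit in limma 3.58.1 under R 4.3.3 (lmFit, eBayes with a trend) on log2(FPKM + 0.1) without covariates, with Benjamini-Hochberg adjustment over 11687 genes and a threshold of 0.05. Fold changes on this scale understate those of low genes. Labels do not state how the mice were related, so p-values measure the spread between these samples. Because columns follow no library, scaling between libraries, pairing and similarity between genes were not computed.

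The members and lists were chosen with earlier results of these data known. The text names all members, Lifr, Psmb5, Psmb6 and Psmb7, and from each list up to 4 genes past the threshold or else up to 3 with the highest mean FPKM, unless stated. The GAS motif (TTCNNNGAA) was added later. Alternatives were other pseudocounts (0.01 and 1), filters and thresholds, eBayes without trend, removal of the median shift, and single values left out.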

Additional observations from a re-analysis of the deposited data

How the results depend on the processing

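No paired analysis was possible because the columns are sorted within each group and carry no library. No class I gene passed under any of 13 alternatives, 1 of which (leaving out 3 genes at 0 in 1 group and above 100 FPKM in the other) was chosen after seeing the data. With a control value left out, 1 control is compared with 3 knockouts and is assumed to vary like them, so that missing the threshold there says little. In the fits with a value left out, genes outside the lists lost a value of the same group at random. Of the 130 log2 fold changes, the merged entry included, 123 kept their direction. Many of these could not turn. A changed filter or threshold, eBayes without trend and the 3 genes left out do not alter a member's log2 fold change. The number is therefore no measure of stability, and every turn came with the shift removed or a single value left out. The sign turned for Tapbp with the median shift of 0.03 removed (-0.0019), without the lowest control value (-0.04) and without the highest knockout value (-0.043). It also turned for Tap2 (-0.06 and -0.0061 without the same values), H2-K1 (-0.02) and Psmb10 (-0.11) without the lowest control value. With single values left out, the log2 fold change ran from -0.0602 to 0.2051 for Tap2, -0.0205 to 0.2673 for H2-K1, -0.043 to 0.0865 for Tapbp, -0.11 to 0.2569 for Psmb10, 0.12 to 0.37 for Tap1, 0.18 to 0.57 for Psmb9 and 0.06 to 0.36 for the merged entry of H2-D1 and H2-L. The number of members above 0 was 5 to 9 with single values left out and 8 with the shift removed, and their median was 0.12 to 0.37 with single values left out.

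Over all genes, 66 were called (42 higher, 24 lower). That count was 16 (11 and 5) without a filter, 32 (21 and 11) without the trend and 109 (68 and 41) at an adjusted p under 0.1. With single values left out it was 15 to 93 (6 to 59 higher and 9 to 34 lower). Neutrophil markers called were 2 at a pseudocount of 0.01, 0 without a filter, 2 at an adjusted p under 0.1, and 0 to 2 with single values left out. T and NK cell markers called were 1 at an adjusted p under 0.1. With single values left out, Psmb8 stood at up to 22.4% of Psmb5 in controls and at 31.9% to 35.2% in knockouts, and Psmb9 at 18.1% to 18.4% and 23.1% to 28.9% of Psmb6. Psmb10 stood at 17.6% to 20.9% and 19.5% to 20.2% of Psmb7. The median half-width of the members' 95% intervals was 0.36 on the log2 scale, which is a median and no limit for a single gene. The causes of these changes were not tested.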

Other observations

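The following genes were chosen after their values were seen. Genes listed as receptors for class I molecules on T, NK and myeloid cells were mostly under the minimum level, and 3 of 10 were tested. Being listed does not show that each binds class I molecules. Lilrb4, an inhibitory receptor, was at 1.96 and 2.60 FPKM in controls and 3.11, 3.51 and 4.45 FPKM in knockouts (log2 fold change 0.67, adjusted p = 0.23, limma). Pirb, which binds class I molecules on myeloid cells, was at 1.58 and 1.80 FPKM in controls and 2.22, 2.34 and 3.39 FPKM in knockouts (0.59, adjusted p = 0.36, limma). Klrk1, the other gene tested, was at 0.54 and 0.60 FPKM in controls and 0.73, 0.79 and 1.12 FPKM in knockouts (0.53, adjusted p = 0.54, limma). In all 3 every knockout value was the higher, as in 15.1% of all genes tested, and none passed.

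Usp18, an interferon-induced brake on the type I interferon receptor, was at 4.85 and 5.70 FPKM in controls and 6.64, 8.38 and 8.80 FPKM in knockouts (log2 fold change 0.57, adjusted p = 0.21, limma). Socs3, which encodes a brake on cytokine receptors, was at 5.86 and 7.74 FPKM in controls and 3.39, 3.89 and 5.19 FPKM in knockouts (-0.70, adjusted p = 0.21, limma), lower without overlap. H2-Q5, a heavy chain gene with close paralogs, was at 25.4 and 33.8 FPKM in controls and 18.2, 18.6 and 23.7 FPKM in knockouts (-0.55, adjusted p = 0.27, limma). H2-Q5 was thus lower in every knockout than in both controls, with a direction opposite to that of the classical heavy chain genes, but did not pass, and the difference between H2-Q5 and these genes was not tested.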
